A study of Mus musculus with 16 samples.

Results

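The genes described here carry glycerol into the liver cell and turn it into glycerol 3-phosphate or back into a triose. They are the 6 genes Aqp3, Aqp7, Aqp9, Gk, Gpd1 and Gpd2, taken by symbol out of 50559 gene symbols in the table of liver RNA-Seq counts. The libraries, 4 in each of 4 groups, came from livers of male C57BL/6J mice. These mice were put on an LFD (the labels say chow) or an HFD at 6 weeks of age for 10 weeks. They were treated over the last 4 weeks. Control siRNA, directed at luciferase, was given to LFD and HFD mice at a dose of 10 mg/kg with 2 weeks between doses, and these mice were also gavaged with the vehicle methylcellulose. HFD + siRNA mice were instead dosed with 20 mg/kg of a siRNA against ketohexokinase (KHK), on the same schedule and with the same methylcellulose. HFD + Inhib mice received the control siRNA and 15 mg/kg of the small molecule KHK inhibitor PF-06835919 given 2 times a day in the same vehicle. The KHK siRNA carries a GalNAc group that is taken up by hepatocytes, whereas the inhibitor was systemic. All mice were injected with saline or insulin shortly before the livers were taken, and the labels do not say which mouse received which. Expected counts summed to between 24317111 and 35820234 per library (median 29570114).

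Glycerol released from stored fat reaches the liver in the blood and crosses the hepatocyte membrane through aquaglyceroporins, channels that pass glycerol as well as water. AQP9 is the main one of hepatocytes, while AQP7 and AQP3 are better known from adipocytes, kidney and skin. Glycerol kinase, encoded by Gk, phosphorylates glycerol to glycerol 3-phosphate. This product is the backbone of triglycerides and phospholipids, and it can be oxidized to dihydroxyacetone phosphate on the way to glucose. GPD1, the cytosolic glycerol 3-phosphate dehydrogenase, interconverts the pair with NADH, and GPD2, the mitochondrial enzyme, oxidizes glycerol 3-phosphate and passes the electrons to the respiratory chain. Together GPD1 and GPD2 form the glycerol phosphate shuttle. KHK makes fructose 1-phosphate, which is split into dihydroxyacetone phosphate and glyceraldehyde, so that fructose feeds the same triose pool.

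The promoters of Gk and Aqp7 are shown because Gk had the lowest p of the 6 genes between HFD and LFD and Aqp7 RNA was seen almost only with the inhibitor. Windows around RefSeq start sites (build GRCm38.p6) were at hand for 5 of the 6 genes (Gpd1 excepted), 8 windows in all, each from 250 bases before to 50 bases after a start. The Gk window lies at chrX:85776770-85777069 and the second of the Aqp7 windows at chr4:41047913-41048212, both on the minus strand. Capitals mark matches, on either strand, to AGGTCA, the half-site to which PPARα and other nuclear receptors bind, to CACGTG, which is an E-box, or to the forkhead motif TGTTTAC.
Gk: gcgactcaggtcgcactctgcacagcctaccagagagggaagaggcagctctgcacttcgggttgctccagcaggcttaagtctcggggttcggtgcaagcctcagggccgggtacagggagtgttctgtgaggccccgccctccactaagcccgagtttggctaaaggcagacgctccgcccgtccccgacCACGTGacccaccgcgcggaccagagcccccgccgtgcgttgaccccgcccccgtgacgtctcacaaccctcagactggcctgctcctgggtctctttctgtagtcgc
Aqp7: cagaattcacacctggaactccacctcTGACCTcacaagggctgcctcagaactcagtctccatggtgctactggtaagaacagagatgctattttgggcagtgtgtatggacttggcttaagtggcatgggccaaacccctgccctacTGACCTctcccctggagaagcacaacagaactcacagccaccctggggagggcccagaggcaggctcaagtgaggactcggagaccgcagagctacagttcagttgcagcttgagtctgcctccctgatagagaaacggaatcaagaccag
The Gk window held 1 CACGTG, which begins 58 bases before the start, and 7.15% of all 32851 RefSeq windows of this length hold one. Both AGGTCA matches of the Aqp7 window were in the orientation TGACCT and begin 223 and 101 bases before the start. A match to AGGTCA was present in 16.3% of all windows. The other Aqp7 window, which overlaps this one, held 1 of these AGGTCA matches, and TGTTTAC (3.65% of all windows) was in none of the 8. The windows of Aqp3, Aqp9 and Gpd2 held none of the 3 motifs. These are matches of letters, and no binding was measured.

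Khk, the target of both treatments, was at 214, 233, 349 and 269 CPM in the LFD libraries and at 251, 322, 233 and 251 CPM in the HFD libraries. The HFD + siRNA libraries held 11.8, 9.14, 18.1 and 11.5 CPM, all far below every other library, and the HFD + Inhib libraries held 112, 152, 94.6 and 120 CPM. CPM are counts scaled by library totals after TMM normalization. The log2 fold change of Khk was -4.38 with the siRNA against HFD (standard error, SE, 0.23) at an adjusted p of 1.88e-08 in the quasi-likelihood test of edgeR. With the inhibitor it was -1.14 (SE 0.20) at an adjusted p of 0.000752 in edgeR. The labels of the HFD + siRNA libraries therefore match the level of the targeted RNA.

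**Figure D1:**
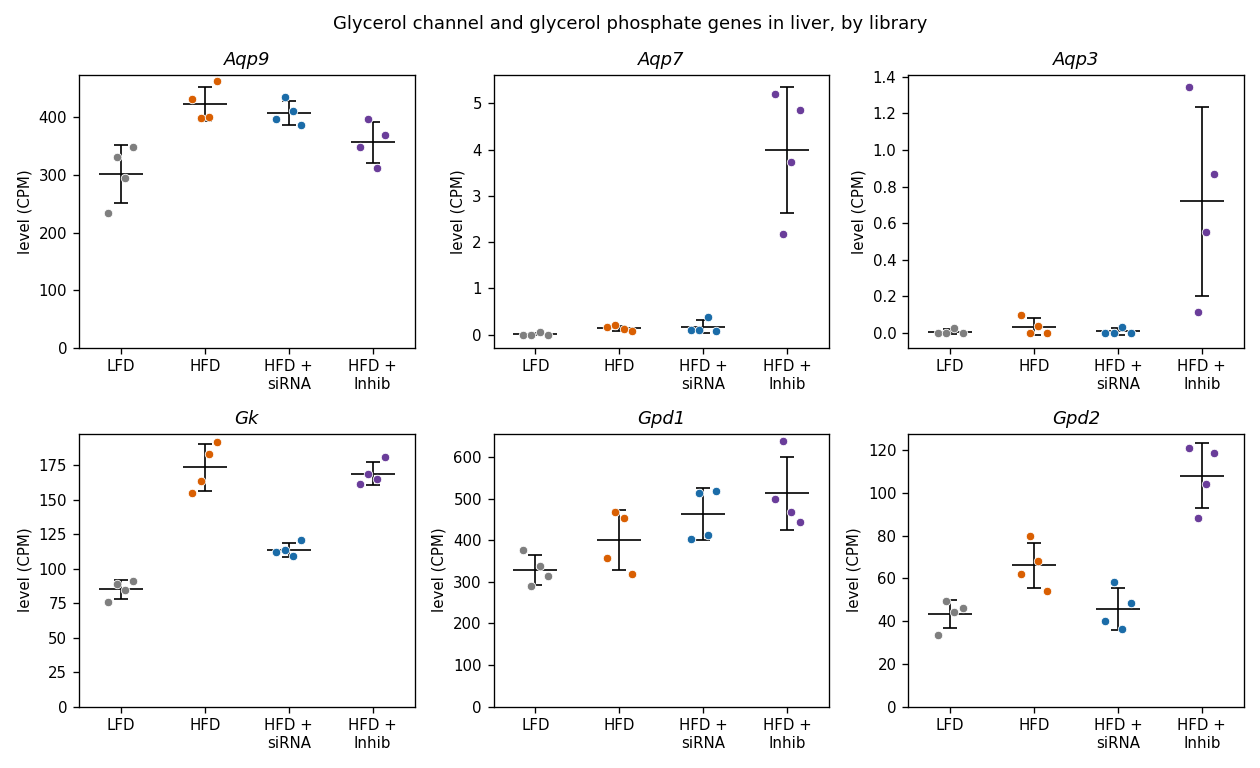
Level of each of the 6 genes in every library. Points are single libraries in CPM on a linear axis from 0 (Aqp7 and Aqp3 have axes of their own), horizontal bars are group means and whiskers are SD (n = 4). Gk is high in HFD and HFD + Inhib (173 and 169 CPM on average), and Aqp7, Aqp3 and Gpd2 are highest in HFD + Inhib.

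Aqp9 was the abundant channel, and the HFD raised it. Its LFD libraries held 234, 331, 295 and 348 CPM and its HFD libraries 432, 399, 401 and 463 CPM, without overlap. The HFD + siRNA libraries held 398, 435, 412 and 386 CPM, and the HFD + Inhib libraries 348, 398, 313 and 370 CPM. In HFD relative to LFD the log2 fold change of Aqp9 was 0.49 (SE 0.11, adjusted p = 0.00825 from the edgeR test). Of the 18335 genes tested, 9.58% were called higher and 8.8% lower in this comparison at an adjusted p under 0.05. Neither treatment moved Aqp9 past the threshold. Its log2 fold change was -0.06 with the siRNA against HFD (SE 0.11, adjusted p = 0.801 from the edgeR test) and -0.25 with the inhibitor against HFD (SE 0.11, adjusted p = 0.148). The HFD + Inhib libraries nevertheless lay below every HFD library, the nearest pair at 398 and 399 CPM, and under both corrections for base composition described with Gk the difference was called (-0.32, adjusted p = 0.0326, and -0.31, adjusted p = 0.0487). From low to high the group means ran LFD (302 CPM), HFD + Inhib (357), HFD + siRNA (408) and HFD (424), and no neighbours in this order differed past the threshold. The log2 fold change against LFD was 0.43 for HFD + siRNA (adjusted p = 0.0263 from edgeR, lost without LFD replicate 1 or 3 or HFD + siRNA replicate 1, 2 or 3, at 0.32 to 0.44) and 0.24 for HFD + Inhib (adjusted p = 0.105).

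Aqp7 was almost silent outside the HFD + Inhib group. Counts were 0, 0, 2 and 0 in the LFD libraries, 5, 8, 3 and 2 in the HFD libraries and 3, 3, 11 and 3 in the HFD + siRNA libraries. The HFD + Inhib libraries held 147, 56, 115 and 162 counts, or 5.19, 2.18, 3.72 and 4.86 CPM, and the lowest of them was well above the highest of the others (0.384 CPM). Aqp7 passed the filter on low counts only through the HFD + Inhib group, so that a gene with this pattern was bound to differ there. The summed counts gave 27.3 times the HFD level (95% interval 17.1 to 46.4 from an exact binomial, for counting error only), 24.7 times the HFD + siRNA level (15.8 to 40.9) and 235 times the LFD level (64.6 to 1942), where only 2 counts stand below the line. The fitted log2 fold change of Aqp7 was 4.73 with the inhibitor against HFD (SE 0.46, adjusted p = 3.43e-06 from edgeR) and 4.56 with the inhibitor against the siRNA (SE 0.45, adjusted p = 2.39e-06). With the inhibitor against HFD, 9.8% of the genes tested were called higher and 8.42% lower. The HFD libraries held 18 Aqp7 counts in all against 2 in LFD, a ratio of 8.59 (95% interval 2.06 to 76.4 for counting error only). That difference reached an adjusted p of 0.0406 in edgeR (log2 fold change 2.82), and the call was lost without LFD replicate 1, 2 or 4 or HFD replicate 1, 2 or 3, with values from 2.46 to 2.91 and an adjusted p of up to 0.0996. The siRNA left Aqp7 at 20 counts in all, a ratio to HFD of 1.10 (0.554 to 2.21), with an adjusted p of 0.889 in edgeR.

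Aqp3 followed the same outline at a lower level and was not tested, because too few libraries reached the count minimum. It had 0, 0, 1 and 0 counts in LFD, 3, 0, 1 and 0 in HFD, 0, 0, 1 and 0 in HFD + siRNA, and 38, 3, 17 and 29 in HFD + Inhib. The HFD + Inhib libraries were higher than all others on the CPM scale, although the lowest of them (0.117 CPM) was close to the highest HFD library (0.0994 CPM). The same HFD + Inhib library, replicate 2, was also the lowest of its group for Aqp7 and Gpd2. The summed counts gave a ratio to HFD of 22.3 (95% interval 8.39 to 83.5, counting error only), with 87 counts against 4. Without the filter, the adjusted p of Aqp3 over 33142 genes was 0.00098 with the inhibitor against HFD and 0.000123 with the inhibitor against the siRNA in edgeR.

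AQP7 and AQP3 are channels of adipocytes, so a list of 6 adipocyte markers was read in the same libraries. Its summed level (group mean) was 5.78 CPM in LFD, 9.77 in HFD, 14.1 with the siRNA and 103 with the inhibitor. Fabp4, a fatty acid binding protein and the most abundant of the list, was at 4.82, 6.90, 6.70 and 68.0 CPM, and Cfd, which encodes adipsin, at 0.523, 2.59, 7.38 and 34.5 CPM in the same order of groups. Fabp4 and Cfd made up nearly the whole sum, and both rose with the inhibitor against HFD, with log2 fold changes of 3.30 (adjusted p = 2.26e-07 from edgeR) and 3.68 (adjusted p = 0.000315). Adipoq, Plin1, Retn and Lep stayed near 0 in every group. Adipoq, which encodes adiponectin, had 23 counts in all in LFD, 10 in HFD, 4 with the siRNA and 5 with the inhibitor, and Plin1, the perilipin of the fat droplet of adipocytes, had 21, 9, 2 and 1. Retn had 1 count in the whole HFD + Inhib group, and Lep had none. LFD replicate 3 held 16 Adipoq, 15 Plin1 and 11 Retn counts, and HFD replicate 2 held 10 Adipoq, 9 Plin1 and 21 Lep counts, with 2 and 8 counts of Aqp7. In HFD + Inhib, Aqp7 had 480 counts in all, Adipoq 5 and Plin1 1, while Fabp4 and Cfd were at 68.0 and 34.5 CPM. The cell source of the Aqp7 RNA was not tested. In bulk liver, a change in the share of a cell type and a change in RNA per cell cannot be told apart.

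**Figure D2:**
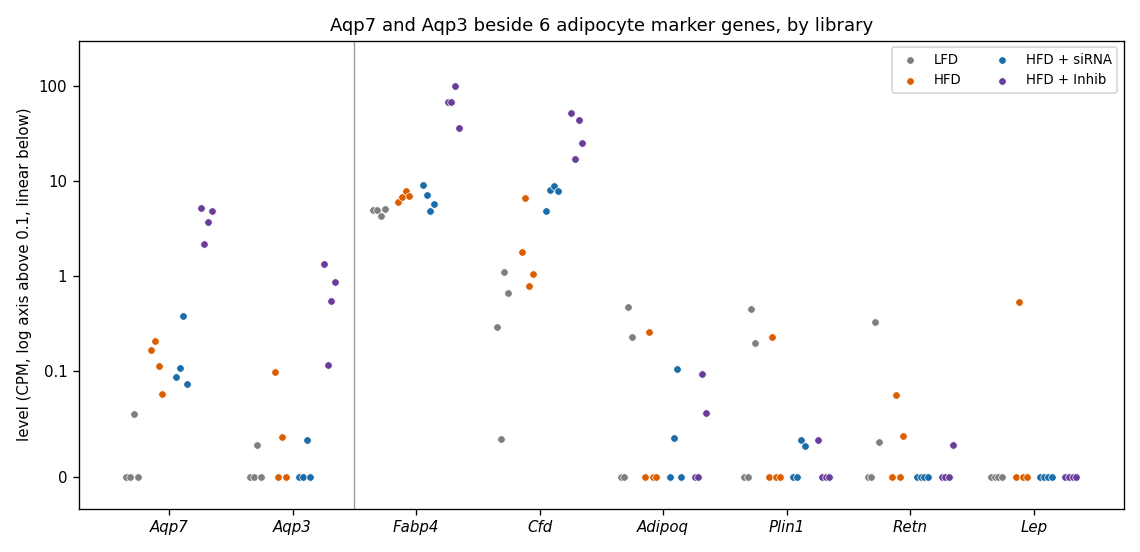
Levels of Aqp7 and Aqp3 (left of the line) and of 6 adipocyte markers (right) in each library, in CPM on an axis that is logarithmic above 0.1 and linear below, with points coloured by group. Fabp4 and Cfd are highest in HFD + Inhib along with both channels, whereas Adipoq, Plin1, Retn and Lep are at most 0.539 CPM in any library.

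Gk was higher with the HFD and, before a correction for base composition, differed between the treatments. The LFD libraries held 75.7, 88.8, 84.6 and 91.3 CPM of Gk, and the HFD libraries held 155, 163, 183 and 192 CPM. The HFD + siRNA libraries held 112, 113, 109 and 121 CPM, between those 2 groups and overlapping neither. The HFD + Inhib libraries, at 161, 169, 165 and 181 CPM, lay within the range of the HFD libraries. The HFD raised Gk 2.04-fold (log2 fold change 1.03, SE 0.08, adjusted p = 4.87e-06 from edgeR), the 5th lowest p of all genes tested. After the siRNA, relative to HFD the log2 fold change was -0.61 (SE 0.08, adjusted p = 0.000527 from edgeR), and in this comparison 5.2% of genes were called higher and 6.55% lower. With the inhibitor against HFD it was -0.04 (SE 0.08, adjusted p = 0.804). The direct comparison of HFD + Inhib versus HFD + siRNA gave 0.57 (SE 0.08, adjusted p = 0.000103 from edgeR), where 17.3% of genes were called higher and 16.6% lower. Gk stayed above its LFD level under both treatments, by 0.42 on the log2 scale in HFD + siRNA (adjusted p = 0.00575) and by 0.99 in HFD + Inhib (adjusted p = 4.1e-07). The comparisons with HFD share the same HFD libraries.

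The size of these differences for Gk depended on a correction for the base composition of transcripts. Genes are not independent replicates, but over 8339 of them with good expression the log2 fold changes had a Spearman correlation with the GC content of the longest transcript of -0.52 in HFD relative to LFD, 0.50 with the siRNA against HFD, -0.28 with the inhibitor against HFD and -0.53 with the inhibitor against the siRNA. The longest Gk transcript has a GC content of 40.5%, lower than in all but 7.53% of those genes, whose median is 49.2%. Gpd1 lies at the other end with 56.9% GC (88.7% of the genes lie below it), and Aqp9 (47.2%) and Gpd2 (46.5%) lie nearer the middle. With a trend on GC content and length removed from each library, Gk rose by 0.72 in HFD relative to LFD (adjusted p = 4.22e-05 from edgeR), and its log2 fold change was -0.31 with the siRNA against HFD (adjusted p = 0.0205). When GC and length were averaged over all transcripts of a gene in place of the longest, the value for HFD + siRNA versus HFD was -0.25 and missed the threshold (adjusted p = 0.0744). The difference between the treatments fell to 0.18 (adjusted p = 0.0914) and 0.16 (adjusted p = 0.172) under these corrections and was not called in either. The rise of Gk with the HFD was thus called with and without the corrections, and its level under the siRNA relative to HFD was called in 1 of the 2.

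Gk has a close relative in Gk2, but only 0.343% of the 50-base words of its transcripts are shared with it, and at most 0.457% with any other gene. The side of the pathway fed by trioses was read from 9 further genes. With the inhibitor against HFD, 4 of these 9 fell and none rose, with a median log2 fold change of -0.14 against -0.004 over all genes tested, of which 8.42% fell and 9.8% rose. Tkfc, the triokinase that phosphorylates glyceraldehyde from fructose, had the largest change, with a log2 fold change of -1.33 (138 against 347 CPM, adjusted p = 3.19e-05 from edgeR). Akr1b3, an aldose reductase, was at -0.52 (adjusted p = 0.0463) and Glyctk, a glycerate kinase, at -0.43 (adjusted p = 0.0288). With the correction for GC content and length of the longest transcript (the GC correction) 2 of the 9 fell. Neither Akr1b3 (-0.50, adjusted p = 0.0503 in edgeR) nor Glyctk (-0.27, adjusted p = 0.071) was then called. Of 16109 genes tested under the GC correction, 20.8% were called in either direction with the inhibitor against HFD. The share was 9.75% with the siRNA against HFD and 16.3% in HFD relative to LFD. Under the siRNA against HFD 2 of the 9 rose and 1 fell, where 5.2% of all genes rose and 6.55% fell. Gpd1l, a relative of Gpd1, rose by 0.42 (adjusted p = 0.0347) and Akr1a1, an aldehyde reductase, by 0.41 (adjusted p = 0.00897). Under the GC correction 1 rose and 2 fell, Gpd1l (0.39, adjusted p = 0.0558 in edgeR) was not called and Tkfc was (-0.55, adjusted p = 0.028). The median of the 9 genes was -0.02 without the correction, against 0.02 over all genes. In HFD relative to LFD 1 gene of the 9 rose and 1 fell, near the 9.58% and 8.8% of all genes, the latter Tpi1, which encodes triose phosphate isomerase (-0.34, adjusted p = 0.0133 from edgeR). With the GC correction Tpi1 was at -0.22 (adjusted p = 0.0281) and Glyctk was called higher (0.36, adjusted p = 0.0247).

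Gpd2 RNA was highest with the inhibitor. The LFD libraries held 33.7, 49.3, 44.2 and 46.0 CPM of Gpd2 and the HFD libraries 61.8, 79.6, 68.2 and 54.3 CPM, so that all HFD libraries were higher. The HFD + siRNA libraries, at 39.9, 58.3, 36.3 and 48.6 CPM, overlapped both. The HFD + Inhib libraries held 121, 88.0, 104 and 119 CPM, above every library of the other groups. The log2 fold change of Gpd2 was 0.61 in HFD relative to LFD (SE 0.16, adjusted p = 0.0159 from edgeR), 0.71 with the inhibitor against HFD (SE 0.16, adjusted p = 0.00523) and 1.24 with the inhibitor against the siRNA (SE 0.16, adjusted p = 3.33e-05). With the siRNA against HFD it was -0.53 (SE 0.16, adjusted p = 0.0415), a call that was lost in 9 of 17 alternative analyses, among them both GC corrections and the fits without HFD replicate 1, 2 or 3 or HFD + siRNA replicate 1, 3 or 4 (-0.575 to -0.425). Without LFD replicate 1, the lowest library, the rise with the HFD missed the threshold as well (0.51, adjusted p = 0.0533). Relative to LFD, Gpd2 was at 0.08 with the siRNA (adjusted p = 0.826 from edgeR) and at 1.32 with the inhibitor (adjusted p = 1.63e-05). From low to high the groups ran LFD, HFD + siRNA, HFD and HFD + Inhib, of which LFD and HFD + siRNA did not differ past the threshold. The rise in HFD + Inhib was called in all alternatives run, with a log2 fold change versus HFD between 0.62 and 0.81.

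Gpd1 was higher than in LFD under both treatments and was not called against HFD without the GC correction. Its LFD libraries held 376, 291, 337 and 314 CPM and its HFD libraries 358, 468, 453 and 320 CPM. The HFD + siRNA libraries held 403, 515, 414 and 520 CPM, and the HFD + Inhib libraries 499, 639, 469 and 444 CPM. The group means rose in this order, from 329 CPM over 400 and 463 to 513 CPM, but no neighbours in it differed past the threshold, and the groups overlapped except for both treatments against LFD. The log2 fold change was 0.28 in HFD relative to LFD (SE 0.15, adjusted p = 0.195 from edgeR), 0.21 with the siRNA against HFD (adjusted p = 0.378) and 0.36 with the inhibitor against HFD (adjusted p = 0.1). Against LFD, HFD + Inhib was higher by 0.64 on the log2 scale (SE 0.15, adjusted p = 0.00291), where 18.8% of genes were called higher and 18.2% lower, and with the GC correction by 0.94 (adjusted p = 0.000158 from edgeR). HFD + siRNA was higher than LFD by 0.49 (adjusted p = 0.046), where 4.75% of genes were called higher and 3.88% lower, and this call was lost when any single library was left out. With the correction for the longest transcript's GC and length, Gpd1 was called higher in HFD relative to LFD (0.45, adjusted p = 0.0456) and with the inhibitor against HFD (0.49, adjusted p = 0.0228). Gpd1 shares 9.65% of its 50-base words with Gm16537, which had at most 116 counts in a library against 8125 or more for Gpd1. Gpd2 shares 5.92% of its words with A930012O16Rik, for which no level was available under that symbol. The part of its reads in the Gpd2 counts was not tested.

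**Figure D3:**
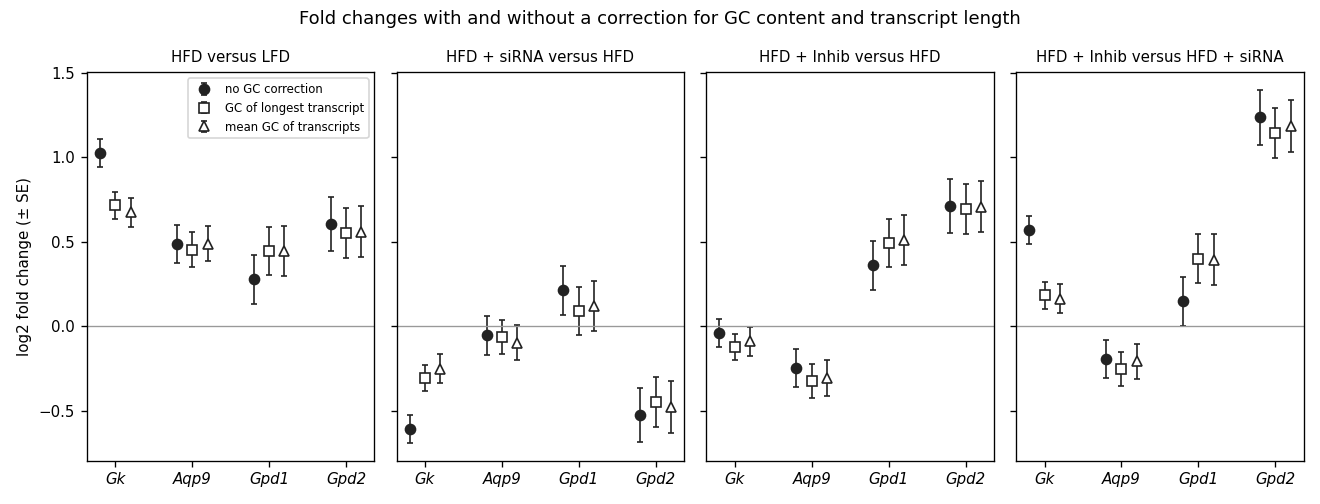
Log2 fold changes of Gk, Aqp9, Gpd1 and Gpd2 in 4 comparisons. Filled circles are the uncorrected values, open squares those after removing a trend on GC content and length of the longest transcript, open triangles those with the mean over transcripts, and whiskers are SE from fits of 16 libraries. In HFD versus LFD Gk moves most, from 1.03 to 0.72 and 0.68, while Gpd2 moves from 0.61 to 0.55 and 0.56.

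Set against each other per kilobase of the longest transcript, the genes kept very different levels. Gpd1 and Aqp9 were the most abundant, at 140 ± 25.3 and 153 ± 10.9 CPM per kb in HFD (SD, n = 4). Gk was at 39.9 ± 3.98 and Gpd2 at 11.5 ± 1.87 CPM per kb in the same group. Aqp7 and Aqp3 stayed far lower even in HFD + Inhib, at 1.58 ± 0.539 and 0.408 ± 0.293 CPM per kb. The most abundant aquaglyceroporin was thus Aqp9 in every group, at 129 ± 13.0 CPM per kb in HFD + Inhib. With the median transcript length of each gene the order between Gpd1 and Aqp9 turned in LFD, HFD + siRNA and HFD + Inhib (in LFD 217 and 554 CPM per kb against 115 and 109), so these genes are not ranked here.

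Most genes of a list of enzymes that split lipids, not all of which free glycerol themselves, rose in the HFD + Inhib group. Of 10 listed, 9 were tested, 7 rose and none fell with the inhibitor against HFD, with a median log2 fold change of 0.96 against -0.004 over all genes, of which 9.8% rose and 8.42% fell. The same counts of 7 and 0 were found with the GC correction. Lpl, the lipase that clears triglyceride from lipoproteins, went from 20.9 to 189 CPM (log2 fold change 3.17, SE 0.31, adjusted p = 3.44e-06 from edgeR). Abhd6, a monoacylglycerol lipase, went from 29.0 to 104 CPM (1.84, SE 0.14, adjusted p = 2.7e-07). Pnpla2, the adipose triglyceride lipase, rose by 1.09 (adjusted p = 0.000237), and Gde1, which splits glycerophosphodiesters, by 1.05 (adjusted p = 3.47e-05). After the siRNA, relative to HFD Gde1 of the 9 rose (0.51, adjusted p = 0.0192 from edgeR) and none fell. Of all genes tested, 5.2% rose and 6.55% fell in this comparison. The median of the 9 was -0.05, against 0.02 over all genes. With the GC correction Gde1 was at 0.35 (adjusted p = 0.0372) and Mgll fell as well (-0.445, adjusted p = 0.0471). In HFD relative to LFD, Mgll, the monoglyceride lipase, rose (0.80, adjusted p = 0.00125), Gde1 and the carboxylesterase Ces1d fell (-0.55, adjusted p = 0.00868, and -0.62, adjusted p = 0.038), beside 9.58% of all genes that rose and 8.8% that fell, and the median was -0.25.

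A list of 10 genes held the enzymes that acylate glycerol 3-phosphate together with those of later acylation and of ether lipid synthesis. With the inhibitor against HFD, 4 of the 10 rose and none fell, with a median of 0.33, beside 9.8% and 8.42% of all genes tested. With the GC correction 6 rose, among them Gpam (0.41, adjusted p = 0.0293 from edgeR), which was not called without it. Gpat3, one of the glycerol 3-phosphate acyltransferases, went from 8.59 to 37.9 CPM (log2 fold change 2.14, adjusted p = 5.35e-05 from edgeR) and Gpat4 from 116 to 252 CPM (1.12, adjusted p = 0.000177). Agpat2, which adds the next acyl chain, rose by 0.67 (adjusted p = 0.0117) and Gnpat, of ether lipid synthesis, by 0.38 (adjusted p = 0.00531). Under the siRNA against HFD 3 fell, namely Gpat3 (-1.16, adjusted p = 0.0163), Gpam (-0.69, adjusted p = 0.00549) and Agps (-0.55, adjusted p = 0.0024), and Gpat4 rose by 0.59 (adjusted p = 0.0279), beside 6.55% and 5.2% of all genes, and the median was 0.06. Gpam, the mitochondrial acyltransferase, was at 344 CPM in LFD, 496 in HFD, 307 with the siRNA and 647 with the inhibitor, and the direct difference between the treatments was 1.08 (adjusted p = 3.44e-05). In HFD relative to LFD 3 of the 10 rose, beside 9.58% of all genes, namely Gpat3 (2.05, adjusted p = 0.0005 from edgeR), Agps (0.55, adjusted p = 0.00136) and Gpam (0.53, adjusted p = 0.0159). With the GC correction 5 rose, Agpat1 (0.42, adjusted p = 0.0168) and Agpat3 (0.27, adjusted p = 0.0325) in addition. Agps was smaller with this correction, at 0.34 in HFD relative to LFD (adjusted p = 0.0123) and at -0.28 with the siRNA against HFD (adjusted p = 0.0407).

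Lists next to the pathway were read in the same way. Of the 7 genes of the malate-aspartate shuttle, the other carrier of cytosolic reducing equivalents, 1 rose and 1 fell with the inhibitor against HFD, the dehydrogenase Mdh2 (0.45, adjusted p = 0.0183 from edgeR) and the carrier Slc25a12 (-0.44, adjusted p = 0.0144), and none passed the threshold with the siRNA against HFD, although Slc25a11 did with the GC correction (-0.29, adjusted p = 0.0276). Their medians were 0.06 and 0.14, against -0.004 and 0.02 over all genes tested. Of 5 genes of glucose production and release, Slc37a4, the glucose 6-phosphate transporter, fell with the inhibitor against HFD (-1.14, adjusted p = 0.000273 from edgeR). With the GC correction Fbp1, fructose bisphosphatase, did as well (-0.51, adjusted p = 0.0247 from edgeR). None of the 5 passed with the siRNA against HFD, with or without that correction. Of the 9 other aquaporins 4 had counts enough to be tested, and of these Aqp8 fell with the siRNA against HFD (110 to 65.8 CPM, -0.75, adjusted p = 0.0382) and Aqp4 rose in HFD relative to LFD (4.42 to 9.31 CPM, 1.07, adjusted p = 0.0424). The call of Aqp4 was lost with the GC correction (0.84, adjusted p = 0.0781). Of all genes tested, 9.8% rose and 8.42% fell with the inhibitor, 5.2% rose and 6.55% fell with the siRNA, both against HFD, and 9.58% rose in HFD relative to LFD. None of the 4 passed with the inhibitor against HFD, where Aqp1, Aqp4, Aqp8 and Aqp11 lay between -0.33 and -0.04.

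Targets of 3 transcription factors of liver metabolism were read alongside. PPARα, the fatty acid receptor of the liver, is known to act on aquaglyceroporin and glycerol kinase genes. Of 13 of its targets, 11 rose and none fell with the inhibitor against HFD (9.8% and 8.42% of all genes), with a median log2 fold change of 2.37, and their summed level went from 6696 ± 457 to 40167 ± 4622 CPM (SD, n = 4). Among them were Cyp4a10 (5.26, adjusted p = 3.37e-08 from edgeR) and Ehhadh, of peroxisomal fatty acid oxidation (4.65, adjusted p = 4.23e-11). With the siRNA against HFD 1 of the 13 fell, Ehhadh (-0.65, adjusted p = 0.00842), and none rose. With the GC correction Acot2, an acyl-CoA thioesterase, fell too (-0.80, adjusted p = 0.0234). Of 7 targets of ChREBP, the carbohydrate-responsive factor, 5 fell and none rose with the siRNA against HFD (6.55% and 5.2% of all genes), with a median of -1.60, among them Acacb (-1.70, adjusted p = 8.49e-05) and Fasn (-1.68, adjusted p = 0.00109). With the inhibitor against HFD 2 of the 7 rose and 1 fell, with a median of 0.12. Of 4 genes that insulin represses through FOXO factors, Igfbp1 and Irs2 fell in HFD relative to LFD (-1.64, adjusted p = 0.0234, and -1.07, adjusted p = 0.00579, from edgeR), where 8.8% of all genes fell. The Igfbp1 libraries ran from 47.3 to 345 CPM in LFD and overlapped those of HFD (38.9 to 59.2 CPM). None of the 4 passed for either treatment against HFD without the GC correction. With it, Irs2 was higher with the inhibitor (0.74, adjusted p = 0.0407). The part of the insulin injection in any of these levels was not tested.

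**Figure D4:**
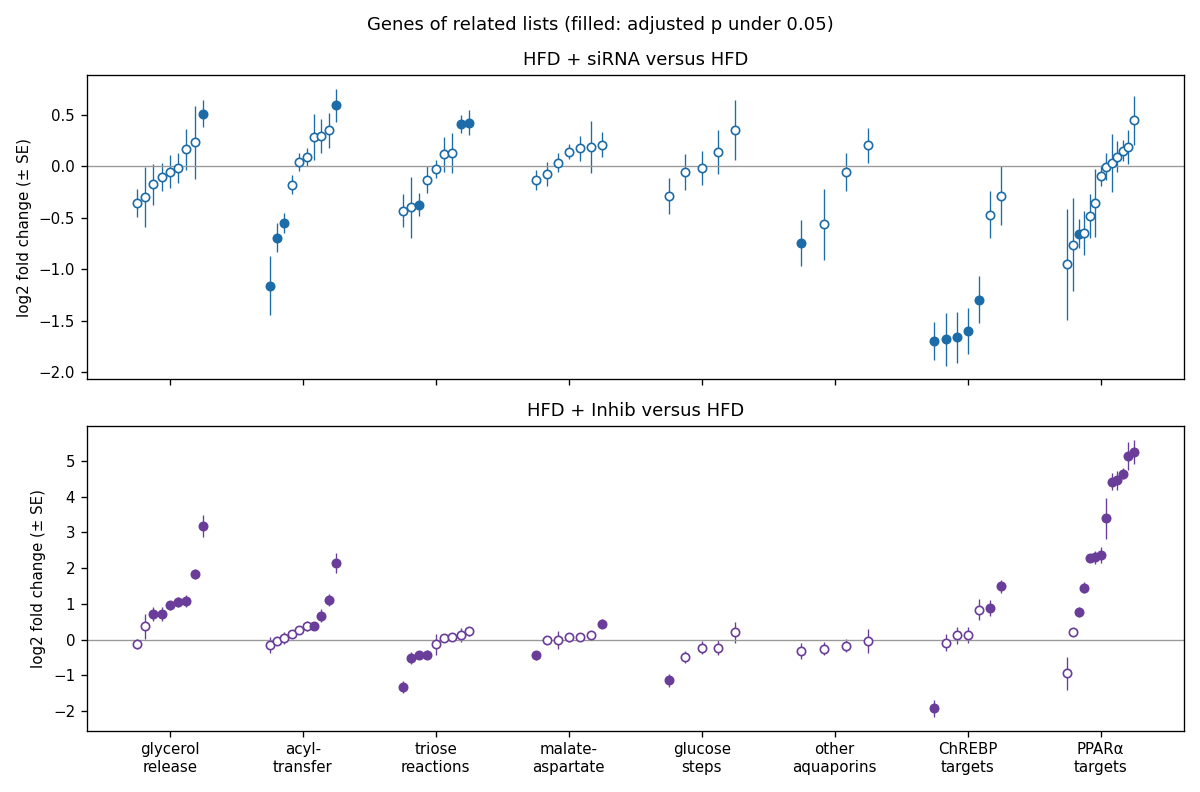
Log2 fold change of each tested gene of 8 related lists in HFD + siRNA versus HFD (top) and HFD + Inhib versus HFD (bottom). Points are genes sorted within a list, filled where the adjusted p is under 0.05, and whiskers are SE from the fit of 16 libraries. With the inhibitor 7 of 9 genes of the glycerol release list and 11 of 13 PPARα targets are filled and above 0. With the siRNA 5 of 7 ChREBP targets are filled and below 0.

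Markers of other cells were read for the same libraries. The 7 hepatocyte markers summed to 82340 ± 6838 CPM (SD, n = 4) in LFD, 72900 ± 7705 in HFD, 77334 ± 5115 with the siRNA and 47241 ± 1023 with the inhibitor, most of it Alb, which encodes albumin, at 57224, 50980, 53466 and 29925 CPM. All libraries were thus liver, and RNA of this list took the smallest share in HFD + Inhib, where 4 of the 7 fell against HFD and none rose, beside 8.42% and 9.8% of all genes tested. Not every marker of the list was lower there, as Cyp2e1 averaged 5284 CPM in HFD and 6323 CPM in HFD + Inhib. The part of the fall of the summed level in the values of the 6 genes was not tested. Endothelial markers summed to 356, 306, 348 and 297 CPM in the 4 groups in the same order. Macrophage markers summed to 195, 180, 217 and 145 CPM, and stellate markers to 219, 265, 295 and 191 CPM. None of these 3 sums was higher in HFD + Inhib than in HFD. Most of the stellate sum was Reln, at 160, 208, 224 and 132 CPM in the same order of groups. Among the other stellate markers, Pdgfrb and Ngfr had lower means in HFD + Inhib than in HFD, whereas Lrat, Des and Col1a1 had higher ones. Of the 6 stellate markers, 2 were called lower with the inhibitor against HFD and none higher. Biliary markers were at 33.4, 38.1, 36.2 and 36.7 CPM, erythroid markers at 769, 581, 610 and 527 CPM and lymphocyte markers at 3.22, 3.92, 2.55 and 1.66 CPM. The pancreas list summed to 9.87, 15.6, 24.5 and 5.24 CPM, of which Cela1 made up nearly all.

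For the 4 genes whose log2 CPM averaged 1 or more, the genes with the most similar pattern over the 16 libraries were found among 12409 such genes. Closest to Gk were Ttpa, the carrier of vitamin E (Pearson r 0.96), Rfk, riboflavin kinase (0.95), and Sh3bgrl (0.95). Ttpa was at 235 CPM in LFD, 456 in HFD, 302 with the siRNA and 511 with the inhibitor. The longest transcripts of these 3 genes have 39.1%, 45.5% and 36.6% GC, against 40.5% for Gk. Closest to Aqp9 were Rgn (0.95), Phka2 (0.92) and Trim34a (0.90), closest to Gpd1 were Psmd7 (0.90), Mrpl16 (0.90) and Mtmr2 (0.89), and closest to Gpd2 were Tmem135 (0.96), Scyl2 (0.95) and Tmed5 (0.95). Tmed5 rose from 83.3 CPM in HFD to 191 CPM in HFD + Inhib and was at 36.9 CPM in HFD + siRNA, close to its 37.3 CPM in LFD. These genes were ranked by Pearson correlation, and ranked by Spearman correlation Psmd7 again came first for Gpd1, while Vmn2r-ps17 came first for Gk (rho 0.944, against 0.918 for Ttpa), Mfsd1 for Aqp9 (0.944) and Srsf3 for Gpd2 (0.962). The libraries share their groups, and the correlations describe these samples only.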

How the data were processed

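RNA was measured by sequencing of 16 libraries of mouse liver, 4 per group. The authors deposited 1 table of RSEM expected counts per gene symbol, and the submitters' processing notes name STAR, RSEM and the build mm39 without versions. The study's methods describe a probe-based expression assay, and which assay gave this table was not settled. Strand was not given in the sources used here. Expected counts (15.1% of all values were not whole) were rounded. Genes with at least 10 counts in enough libraries (filterByExpr in edgeR, total at least 15) were kept, 18335 of 33142 with any count, and 5 of the 6 genes. One quasi-likelihood fit of edgeR 4.0.16 (R 4.3.3) over the 16 libraries, with TMM factors (0.929 to 1.09), gave all comparisons, with Benjamini-Hochberg adjustment over all genes tested and a threshold of 0.05. The standard error is the log2 fold change divided by the root of F. No pair of libraries of a group agreed within sampling noise (chi-square per gene 20.5 to 152 over 24 pairs). The labels do not say how the libraries of a group were obtained, so p-values measure the spread between these libraries. Intervals of ratios of counts cover counting error only.

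Always named were the 6 genes and Khk, the 3 most correlated genes of each of the 6 whose log2 CPM (prior count 2) averaged 1 or more, and from each list at most the 4 genes with the largest called change in a comparison. Markers of other cell types, the aquaporins Aqp1 and Aqp11 and genes sharing sequence are named outside this rule. The members and lists were chosen with earlier results of these data known. GC content and length came from the annotation of an older build (GRCm38) and covered 87.9% of the genes tested, so no gene coordinates are given for the counts. The correction removed from each library a spline of log2 CPM on GC and length (5 degrees of freedom). The version with means over transcripts was added after the data were seen. Other alternatives were size factors by RLE, DESeq2 1.42.0, other filters, fits of 2 groups, a replicate block, a threshold of 0.01 and leaving out each library. The programs were tested on simulated data. The values of 1 gene counted in a list are not reported here.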

Additional observations from a re-analysis of the deposited data

Results flagged for a closer look

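In 24 sets of 4 libraries (6 genes in 4 groups), 4 held a library whose gap to the nearest of the others was a larger share of the whole range than Dixon's 95% critical value for 4 values. Chance gives about 1 in 20 for continuous values, a rate that does not apply to the 3 sets here with 1 library above 0, where the share is 1 by construction. All 4 rest on few counts. Aqp7 stood out in HFD + siRNA replicate 3 at 0.384 CPM (11 counts, the other libraries 3 each) and in LFD replicate 3 at 0.0597 CPM (2 counts, the others 0). Aqp3 stood out in LFD replicate 3 at 0.0299 CPM and in HFD + siRNA replicate 3 at 0.0349 CPM, each 1 count against 0 in the others.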

How the results depend on the processing

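Of 30 log2 fold changes (5 genes in 6 comparisons), 14 kept their direction and their side of the threshold under every alternative run, and over 501 values in all 435 did so, 48 lost the call, 12 gained one and 6 changed sign. At a threshold of 0.01 the genes called numbered 1287 for HFD and 689 for the siRNA against their controls (LFD and HFD), 1733 for the inhibitor against HFD, 3711 for the inhibitor against the siRNA, and 566 and 4123 for siRNA and inhibitor against LFD, against 3370, 2154, 3339, 6204, 1582 and 6767 at 0.05. A fit of the 2 groups alone called 808 in HFD + siRNA versus LFD. Under the GC and length correction, the same with the replicate block, and the mean over transcripts, in this order, the values that crossed the threshold were 0.445, 0.431 and 0.447 for Gpd1 in HFD versus LFD, -0.450, -0.456 and -0.479 for Gpd2 with the siRNA against HFD, -0.323, -0.325 and -0.307 for Aqp9 and 0.492, 0.491 and 0.512 for Gpd1 in HFD + Inhib versus HFD, and 0.182, 0.183 and 0.162 for Gk in HFD + Inhib versus HFD + siRNA. Gk with the siRNA against HFD crossed it with the mean over transcripts (-0.252), and Gpd1 in HFD + Inhib versus HFD + siRNA with the longest transcript, without and with the block (0.401 and 0.403). In HFD + siRNA versus LFD, Gpd1 lost its call with RLE factors (0.479), without a filter (0.496), in the fit of 2 groups (0.496) and with the block (0.484), Aqp7 without a filter (2.993), with the block (2.986) and with the block and correction (2.943), and Aqp9 in the fit of 2 groups (0.438). The cause of these changes was not tested.

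Leaving out each library in turn gave 2001 to 3691 genes called in HFD versus LFD, 1100 to 1981 with the siRNA against HFD and 965 to 1456 in HFD + siRNA versus LFD. In HFD versus LFD, Aqp7 ran from 2.463 to 5.163 and was not called in 6 of 8, called only without LFD replicate 3 or HFD replicate 4, and Gpd2 from 0.504 to 0.698. With the siRNA against HFD, Gpd2 ran from -0.685 to -0.425 (not called in 6 of 8) and Aqp7 from -0.593 to 0.437, below 0 without HFD replicate 4 (-0.019) and without HFD + siRNA replicate 3 (-0.593). Gk in HFD + Inhib versus HFD ran from -0.089 to 0.01, above 0 without HFD replicate 4. In HFD + siRNA versus LFD, Aqp7 ran from 2.23 to 5.316, Aqp9 from 0.32 to 0.497, Gpd1 from 0.418 to 0.551 and Gpd2 from -0.071 to 0.167, below 0 without LFD replicate 1 (-0.031) and HFD + siRNA replicate 2 (-0.071). Aqp9 in HFD + Inhib versus LFD ran from 0.141 to 0.318, called only without LFD replicate 4.

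Same-numbered libraries of different groups had correlations of their deviations from -0.132 to 0.336 (mean 0.041, against -0.0137 for different numbers), and 0 of 16 libraries correlated best with their own number in all other groups, so the numbers were not taken to pair the samples. With the replicate block 3299, 2080, 3341, 6197, 1469 and 6683 genes were called in the 6 comparisons, and Aqp7 with the siRNA against HFD turned to -0.007 with block and correction together. The counts of Aqp3 and of Aqp7 outside HFD + Inhib limit what can be said of them at this depth.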
